A study of Mus musculus with 6 samples.

Results

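Integrins are the cell surface receptors through which cells hold on to extracellular matrix, and laminins are the matrix proteins of basement membranes that many integrins bind. The messenger RNAs of their subunits were followed here in cells whose labels give them as osteosarcoma cells of the established line SaOS2. The genes were taken by symbol, as every listed name of the form ITGA, ITGB, LAMA, LAMB or LAMC with a subunit number or letter. This gave 38 of the 17144 genes in the deposited tables, 26 for integrin subunits and 12 for laminin chains.

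The data are RNA-seq counts from 6 libraries, 3 with titles in C and 3 with titles in D. The title of the study names DDTC(I) and its effect on SaOS2 messenger RNA, which is the question that comparing the groups addresses. No label spells out the letters, a dose, a time or separate cultures. Differences are therefore given as D minus C, and p-values reflect the spread among libraries, which may be technical. Library totals ranged from 18446443 to 20602771 counts. The D libraries differed among themselves along gene length: the slope of log2 expression on log2 length, relative to the mean of the library's own group, was 0.17 in D replicate 2 and −0.18 in D replicate 3, against −0.05 to 0.05 in C. Of 9 bone and line genes, ALPL was at 0.533 ± 0.145 CPM (TMM-scaled count relative to the library total; mean ± SD, n = 3) in C and SP7, BGLAP and IBSP had at most 2 counts in any library, while COL1A2 (176 ± 27.3 CPM in C), COL1A1 (23.3 ± 0.963) and RUNX2 (19.6 ± 1.73) were well detected. SaOS2 is known for high alkaline phosphatase, and the ALPL level goes against that. The labels also give the mouse as the organism, while the gene symbols follow human naming. The cells are named here by the SaOS2 label only.

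An integrin is a pair of an alpha and a beta subunit, and the alpha subunit largely sets the ligand. The beta1 subunit pairs with most alpha subunits, those for collagens, laminins and fibronectin among them, while alphaV takes several beta subunits and binds proteins that carry the short RGD motif. A laminin is a trimer of 1 alpha, 1 beta and 1 gamma chain that polymerizes into the basement membrane and is anchored there to nidogen, perlecan and collagen IV. In bone-forming cells, receptors for fibronectin and collagen I are known for their part in adhesion, survival and differentiation.

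Most of the integrin and laminin genes that passed the test were lower in D. Of the 38 genes, 35 passed the filter on low counts, and of these 16 were called lower and 4 higher at an adjusted p under 0.05 (quasi-likelihood test of edgeR, adjusted by Benjamini and Hochberg over 12682 genes). Over all tested genes, 27.7% were called lower and 26.8% higher, and the shares in this family were 45.7% and 11.4%. The median log2 fold change was −0.43, against −0.02 for all tested genes. Among the calls, 6 falls and all 4 rises were 2-fold or more, against 10.1% and 8.37% of all tested genes. All D libraries lay below all C libraries in 16 of the 35 genes and above them in 5, while 32.1% and 30.6% of all tested genes did so. Nothing here tells fewer cells of a kind from less RNA per cell, since whole cultures were sequenced.

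The number of members called varied with the libraries and the fit. Without C replicate 1 there were 10 lower and 3 higher, against 21.6% and 20.4% of all genes, and without C replicate 3 also 10 and 3, against 22.3% and 21.4%. Without D replicate 1, 11 were lower and 2 higher, against 22% and 22.5%, and without D replicate 2, 17 and 3, against 30.3% and 30.4%. DESeq2 tested 38 members and called 14 lower and 3 higher, against 22.4% and 23.9%. The fit of log2(FPKM + 1) with FPKM above 1 in 3 libraries tested only 21 members. Of these 21, 13 were called lower and 0 higher, against 37% and 21% of all genes. With log2(FPKM + 0.1), 13 and 0 of the same number were called, against 36.7% and 20.9%. In each of these settings more members were called lower than higher.

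The 4 rises, in ITGA9, ITGAM, LAMA1 and LAMC3, were all in scarce messenger RNAs, while falls were found at every level. Levels of different genes are compared as FPKM, the deposited value scaled for gene length and library total. Among the 21 tested members with a mean of at least 1 FPKM over the 6 libraries, 12 were called lower and 0 higher, against 27.1% and 28% of all genes at that level. Of the 14 members under 1 FPKM, 4 were called lower and 4 higher, against 30.4% and 21.1%. Among them, ITGA9, ITGAM and LAMC3 passed the filter on low counts only through the D libraries, where they were higher. LAMB4 passed it only through the C libraries. The direction of these genes is therefore tied to their having been tested, and the counts under 1 FPKM carry that limit. In C the highest levels were those of ITGA5 (509 ± 12.4 FPKM), ITGA3 (378 ± 0.495) and ITGB1 (304 ± 11.65), followed by LAMC1 (111 ± 7.91) and LAMB1 (95.4 ± 5.30). In D, ITGB1 (268 ± 41.1) and ITGA3 (263 ± 37.85) overlapped each other and both lay above ITGA5 (168 ± 27.8).

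**Figure D1:**
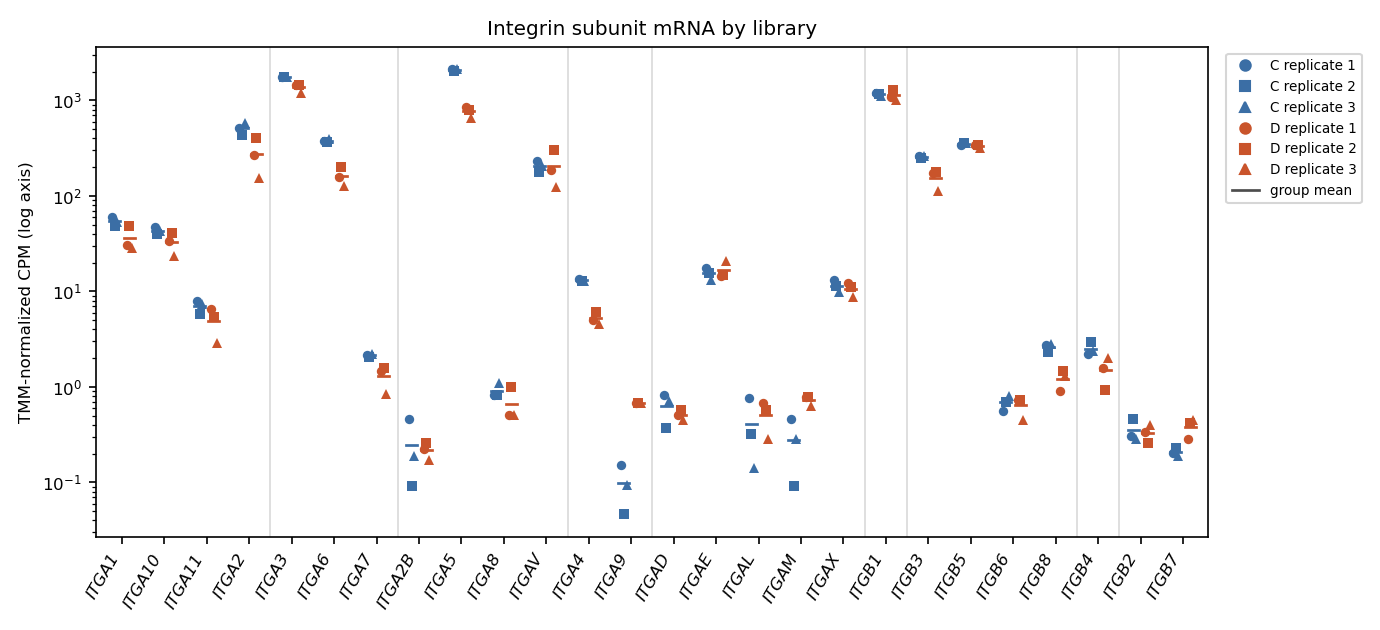
TMM-normalized CPM (log axis) of the 26 integrin genes in each library, with ligand classes divided by grey lines and horizontal bars for group means. ITGA5, ITGA6 and ITGA4 show D points well below C points, while the points of ITGB1, ITGB5 and ITGAV overlap.

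The alpha subunits that recognise RGD went different ways, and ITGA5 fell the most of the well expressed integrins. ITGA5 pairs with beta1 as the main fibronectin receptor. It had 2116, 2033 and 2105 CPM in C replicates 1, 2 and 3 and 860.5, 784 and 649 CPM in D replicates 1, 2 and 3, so that every D library was below every C library. Its log2 fold change was −1.45 ± 0.13 (SE), a level 2.73-fold higher in C (adjusted p = 5.6e-05, edgeR). The value without D replicate 3 was −1.33 and the call was kept in all alternatives. ITGAV, the subunit of the vitronectin receptors, had 234, 180 and 207 CPM in C and 186.5, 302 and 123 CPM in D. Its D libraries lay on both sides of C, highest in D replicate 2 and lowest in D replicate 3, with a log2 fold change, −0.02 ± 0.28, that was not called (95% interval −0.66 to 0.61; adjusted p = 0.95, edgeR). It was 0.25 without D replicate 3 and 0.11 after the trend with length was taken out of each library, also without passing. The ratio of ITGA5 to ITGAV in FPKM was 16.99 ± 1.90 in C and 6.95 ± 2.325 in D. ITGA8, which binds nephronectin, stayed between 9 and 23 counts per library and did not pass the test, and ITGA2B, the platelet subunit, had 2 to 9 counts and was not tested.

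All 3 alpha subunits that bind laminin were called lower, each by a different amount, against 27.7% of all tested genes called lower. ITGA6 pairs with beta1, or with beta4 in the hemidesmosomes of epithelia. It had 373, 362 and 391 CPM in C and 157, 199 and 126 CPM in D, a log2 fold change of −1.22 ± 0.16 (adjusted p = 0.00033, edgeR). The groups were well apart, and the call was kept in every alternative, with values from −1.40 to −1.07. ITGA3 also makes a laminin receptor with beta1. It had 1772, 1773 and 1764 CPM in C and 1448, 1462 and 1184 CPM in D, a log2 fold change of −0.38 ± 0.12 (adjusted p = 0.025, edgeR). The C libraries were nearly equal and D replicate 3 was the lowest of the others. The ratio of ITGA3 to ITGA6 in FPKM was 5.76 ± 0.234 in C and 10.6 ± 1.38 in D, and it was higher in each D library than in any C library. ITGA7, the laminin receptor subunit of muscle, had 42 to 47 counts in C and 15 to 30 in D (log2 fold change −0.72 ± 0.24; adjusted p = 0.035, edgeR).

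The calls of ITGA3 and ITGA7 were lost in several leave-one-out fits. ITGA3 was not called without C replicate 1 (−0.38), C replicate 2 (−0.38), C replicate 3 (−0.38) or D replicate 1 (−0.42). ITGA7 was not called without C replicate 1 (−0.72), C replicate 2 (−0.75), C replicate 3 (−0.69), D replicate 1 (−0.81) or D replicate 3 (−0.48), or in DESeq2 (−0.70).

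Of the 4 collagen-binding alpha subunits, 2 were called lower, and the others had negative values that did not pass. Of all tested genes 27.7% were called lower, and of those longer than 6000 bp 31.3%. ITGA2, known as a receptor for fibrillar collagens, had 512, 438 and 583 CPM in C and 269, 402 and 152 CPM in D. Its 3 D libraries were all lower but spread over a wider range than those of C, and the log2 fold change was −0.90 ± 0.30 (adjusted p = 0.031, edgeR). ITGA1, which favours collagen IV, had 60.5, 48.8 and 52.9 CPM in C and 30.9, 48.6 and 28.6 CPM in D. D replicate 2 nearly reached the lowest C library, and the log2 fold change was −0.58 ± 0.20 (adjusted p = 0.036, edgeR). ITGA10 (−0.40 ± 0.19; adjusted p = 0.11, edgeR) and ITGA11 (−0.50 ± 0.27; adjusted p = 0.15, edgeR) overlapped between the groups. ITGA10 was called without D replicate 2 (−0.57). It was also called with FPKM above 1 in 3 libraries, in the fits of log2(FPKM + 1) (−0.51) and log2(FPKM + 0.1) (−0.58).

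Calls in the collagen class were lost in some subsets of the libraries. ITGA2 was not called without C replicate 1 (−0.90), C replicate 3 (−0.79) or D replicate 1 (−0.88), and its value was −0.60 without D replicate 3 and −1.24 without D replicate 2, both called. ITGA1 was not called without C replicate 1 (−0.50), C replicate 2 (−0.66), C replicate 3 (−0.60) or D replicate 1 (−0.48), and with the length trend removed it was −0.35 and called.

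ITGA4 and ITGA9, a pair of related subunits, went opposite ways at low levels. ITGA4, part of a receptor for VCAM1 and fibronectin, had 13.5, 12.85 and 12.9 CPM in C and 4.965, 6.14 and 4.54 CPM in D. Its log2 fold change was −1.32 ± 0.14 (adjusted p = 0.00013, edgeR), with no overlap and the call kept in every alternative. ITGA9, a tenascin-C receptor subunit, was near absent in C with 3, 1 and 2 counts and had 12, 13 and 12 counts in D. Its summed count relative to the summed library totals had a ratio, D over C, of 6.33, with an exact 95% counting interval of 2.65 to 18.4, and it was called higher (adjusted p = 0.00088, edgeR). ITGA9 passed the filter on low counts only through D. Of the ligand genes of these subunits, SPP1 was called higher and is described with the matrix genes, and VCAM1 and TNC were not called. VCAM1 averaged 0.654 ± 0.124 CPM in C against 0.797 ± 0.302 CPM in D, and TNC 609.5 ± 83.7 against 790 ± 304 CPM.

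The subunits best known from leukocytes stayed at low levels in both groups. ITGAE (15.5 ± 2.23 CPM in C and 16.7 ± 3.52 in D), which pairs with beta7 and binds E-cadherin, and ITGAX (11.5 ± 1.63 and 10.7 ± 1.79 CPM) were the highest of the 5 alpha subunits and did not pass the test. ITGAL and ITGAD had 3 to 16 counts per library and did not pass either. ITGAM, the alpha subunit of the complement receptor of macrophages, had 9, 2 and 6 counts in C and 14, 15 and 11 in D, and was called higher (log2 fold change 1.40 ± 0.45; adjusted p = 0.028, edgeR). ITGAM was not called without C replicate 2 (0.97), C replicate 3 (1.42), D replicate 1 (1.34) or D replicate 2 (1.38) and in DESeq2 (1.42). Their partner subunits ITGB2, with 5 to 10 counts, and ITGB7, with 4 to 8 counts, were below the filter and not tested. Among 10 leukocyte markers, 4 exceeded 3 counts in each library, and the summed level was 1052 to 1100 CPM in C and 1572 to 1711 in D. Of the 5 tested, 2 were called higher and 0 lower, 40% and 0% against 26.8% and 27.7% of all tested genes. The pan-leukocyte gene PTPRC was at 0.2915 ± 0.172 CPM in C and 0.1275 ± 0.0248 in D. SPI1, a transcription factor gene of myeloid cells, had 2, 3 and 2 counts in C and 19, 18 and 21 in D and was called higher (adjusted p = 0.00015, edgeR). It passed the filter on low counts only through D, as ITGAM did. The monocyte gene CD14 had 3, 1 and 2 counts in C and 11, 5 and 15 in D and was not tested. CSF1R of the same list was at 16.7 ± 0.639 CPM in C and 16.8 ± 1.39 in D and was not called (log2 fold change 0.01 ± 0.12). PTPRC, SPI1 and CD14 were named after their values were seen. LCP1, an actin-bundling protein gene, rose from 573 ± 14.4 to 1151 ± 83.9 CPM, and together with CD68, which did not pass, it made up nearly all of that sum. The part of other cells in the ITGAM value was not tested.

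The shared beta1 subunit gene was not called. Of the 4 beta subunits that pair with alphaV, 2 were called lower, against 27.7% of all tested genes. ITGB1 had 1197, 1177 and 1105 CPM in C and 1095, 1293 and 1014 CPM in D, with overlapping groups. The log2 fold change of −0.03 ± 0.12 did not pass (95% interval −0.31 to 0.24; adjusted p = 0.835, edgeR), and it was 0.05 without D replicate 3. ITGB5, which makes a vitronectin receptor with alphaV, had 340, 354 and 358 CPM in C and 341, 339.5 and 319 CPM in D (−0.07 ± 0.09; 95% interval −0.29 to 0.14; adjusted p = 0.52, edgeR). ITGB3, the other main vitronectin receptor subunit used by osteoclasts and platelets, had 264, 247 and 260 CPM in C and 173, 176.5 and 112 CPM in D. All D libraries lay below C, and ITGB3 fell by 0.74 ± 0.17 on the log2 scale (adjusted p = 0.0060, edgeR), with its call kept in every alternative. The ratio of ITGB3 to ITGB5 in FPKM was 0.552 ± 0.0310 in C and 0.346 ± 0.0710 in D.

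Scarcer beta subunits were also measured. ITGB8, known for the activation of latent TGF-beta with alphaV, had 50 to 60 counts in C and 16 to 28 in D (log2 fold change −1.09 ± 0.23; adjusted p = 0.0036, edgeR). ITGB6, the epithelial partner of alphaV, had 8 to 17 counts per library and did not pass. ITGB4, the hemidesmosome subunit, had 43, 64 and 50 counts in C and 28, 18 and 35 in D, a log2 fold change of −0.75 ± 0.28 that was just called (adjusted p = 0.046, edgeR). The ITGB4 call was lost without C replicate 1 (−0.84), C replicate 2 (−0.62), C replicate 3 (−0.80), D replicate 1 (−0.79) or D replicate 2 (−0.46), with RLE factors (−0.72), in DESeq2 (−0.73) and with the length trend removed (−0.58).

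The summed alpha subunit messages were lower relative to the beta subunit messages in each D library, and most of the difference in the alpha sum lay in ITGA5 and ITGA3. The summed FPKM of the 18 alpha genes was 1087, 1041 and 1093 in C and 572, 604.5 and 422 in D. That of the 8 beta genes was 441, 435.5 and 423 in C and 364, 415 and 314 in D. The ratio of the alpha to the beta sum was 2.48 ± 0.0976 in C and 1.46 ± 0.114 in D, without overlap. These sums are descriptions of the members and were not tested. They carry no TMM scaling, and the median of all genes was −0.14 in the filtered fit of log2(FPKM + 1), against −0.02 in the main test. The fall of each sum in D includes that shift, while ratios and shares within a library do not depend on it. ITGA5 held 47.4% ± 0.180 of the alpha sum in C and 31.7% ± 2.29 in D, while ITGA3 held 35.2% ± 0.911 and 49.6% ± 2.23. ITGB1 held 70.1% ± 1.201 of the beta sum in C and 73.5% ± 1.61 in D. The ratio of ITGA5 to ITGB1 went from 1.675 ± 0.0858 to 0.630 ± 0.0888.

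**Figure D2:**
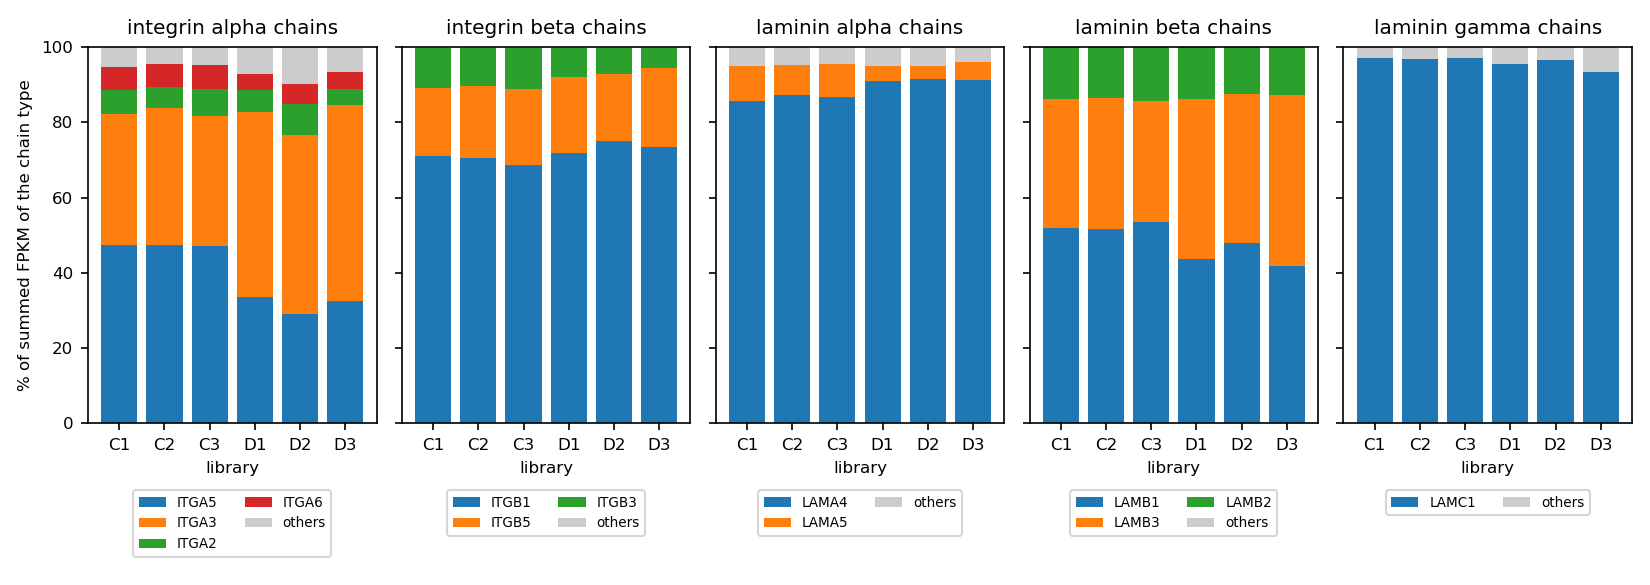
Share of the summed FPKM of each chain type (%, vertical axis) held by each gene in each library, with genes under 5% in both groups pooled as others. ITGA5 is the largest alpha share in each C library and ITGA3 in each D library, while LAMA4 and LAMC1 hold most of their types in all 6.

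Among laminin chains, 6 of 12 genes were called lower and 2 higher, 50% and 16.7% against 27.7% and 26.8% of all tested genes, and the falls took in the beta1 and gamma1 chains that most laminins share. LAMC1, the gamma1 chain, had 846, 775 and 886.5 CPM in C and 464, 534 and 275 CPM in D. All D libraries were below C, D replicate 3 by the most, and the log2 fold change was −0.98 ± 0.22 (adjusted p = 0.0053, edgeR). It was −0.73 without D replicate 3 and −0.80 with the length trend removed, both called. LAMB1, the beta1 chain, had 606, 553 and 608 CPM in C and 389, 457 and 283 CPM in D (log2 fold change −0.65 ± 0.17; adjusted p = 0.010, edgeR). It too had its lowest library in D replicate 3, without which the value was −0.47 and still called. LAMB2, the beta2 chain of the neuromuscular junction and the kidney filter, had 140, 126.5 and 142 CPM in C and 108, 104 and 76.2 CPM in D (−0.51 ± 0.14; adjusted p = 0.016, edgeR). The LAMB2 call was lost without C replicate 1 (−0.49) or C replicate 3 (−0.48).

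**Figure D3:**
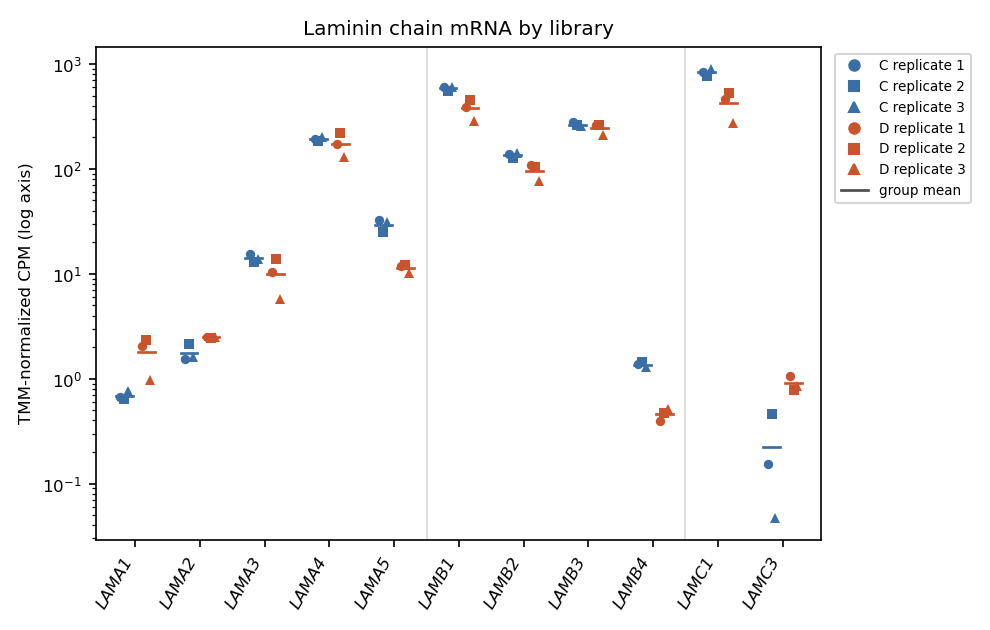
TMM-normalized CPM (log axis) of 11 laminin genes in each library, with the alpha, beta and gamma chains divided by grey lines and horizontal bars for group means. LAMC1, LAMB1 and LAMA5 have their D points below their C points, and D replicate 3 is the lowest of the 6 libraries for LAMA4, LAMB1 and LAMC1.

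The alpha chains, which carry the integrin-binding domains of laminins, did not move together. LAMA4, found in vessels and mesenchyme, was the main alpha chain here, with 86.6% ± 0.878 of the alpha chain FPKM in C and 91.2% ± 0.307 in D. It had 194, 183 and 203 CPM in C and 173, 218 and 129 CPM in D, with a log2 fold change, −0.16 ± 0.17, that was not called (95% interval −0.55 to 0.24; adjusted p = 0.48, edgeR). D replicate 2 was above all C libraries and D replicate 3 below them. LAMA5, widespread in adult basement membranes, had 32.3, 25.0 and 31.1 CPM in C and 11.8, 12.2 and 10.2 CPM in D. The groups did not overlap, the D libraries were close together, and the log2 fold change was −1.37 ± 0.14 (adjusted p = 0.00011, edgeR), with values of −1.52 to −0.92 and the call kept in all alternatives. Its share of the alpha chain FPKM was 8.58% ± 0.769 in C and 4.03% ± 0.685 in D.

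The other alpha chains were scarce. LAMA1, the alpha chain of early embryonic basement membranes, had 13, 14 and 16 counts in C and 36, 45 and 17 in D, and was called higher (log2 fold change 1.36 ± 0.35; adjusted p = 0.010, edgeR). Its D replicate 3 was close to C. LAMA2, the alpha chain of muscle, had 30 to 46 counts in C and 44 to 47 in D, and the log2 fold change of 0.49 ± 0.20 did not pass (adjusted p = 0.062, edgeR). LAMA2 was called without C replicate 2 (0.65) and with the length trend removed (0.78), a setting that bears on it as the longest of the members at 15854 bp. LAMA3, the alpha chain of epithelial laminin, had 15.3, 13.03 and 13.7 CPM in C and 10.4, 13.9 and 5.79 CPM in D and was not called (−0.48 ± 0.26; adjusted p = 0.15, edgeR). Without D replicate 2 it was −0.76 and called, and without D replicate 3 it was −0.19.

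LAMB3, the beta3 chain that joins LAMA3 in the laminin of epithelial anchoring, was not called. It had 279, 259 and 254 CPM in C and 263, 262 and 211 CPM in D, overlapping groups with a log2 fold change of −0.10 ± 0.12 (95% interval −0.37 to 0.16; adjusted p = 0.47, edgeR). The FPKM ratio of LAMB1 to LAMB3 was 1.54 ± 0.0972 in C and 1.05 ± 0.141 in D, and was lower in each D library than in any C library. LAMB3 was well above LAMA3, with 61.9 ± 3.02 FPKM in C against 1.31 ± 0.110.

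The least abundant chains moved in both directions. LAMB4 passed the filter on low counts only through C, and LAMC3 only through D. LAMB4 had 27, 31 and 27 counts in C and 7, 9 and 9 in D (log2 fold change −1.56 ± 0.25; adjusted p = 0.00096, edgeR). LAMC3, the gamma3 chain, had 3, 10 and 1 counts in C and 19, 15 and 15 in D (1.97 ± 0.53; adjusted p = 0.013, edgeR), and was not called without C replicate 1 (1.78) or D replicate 1 (1.83). LAMC3 held 0.276% ± 0.0941 of the gamma chain FPKM in D.

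**Figure D4:**
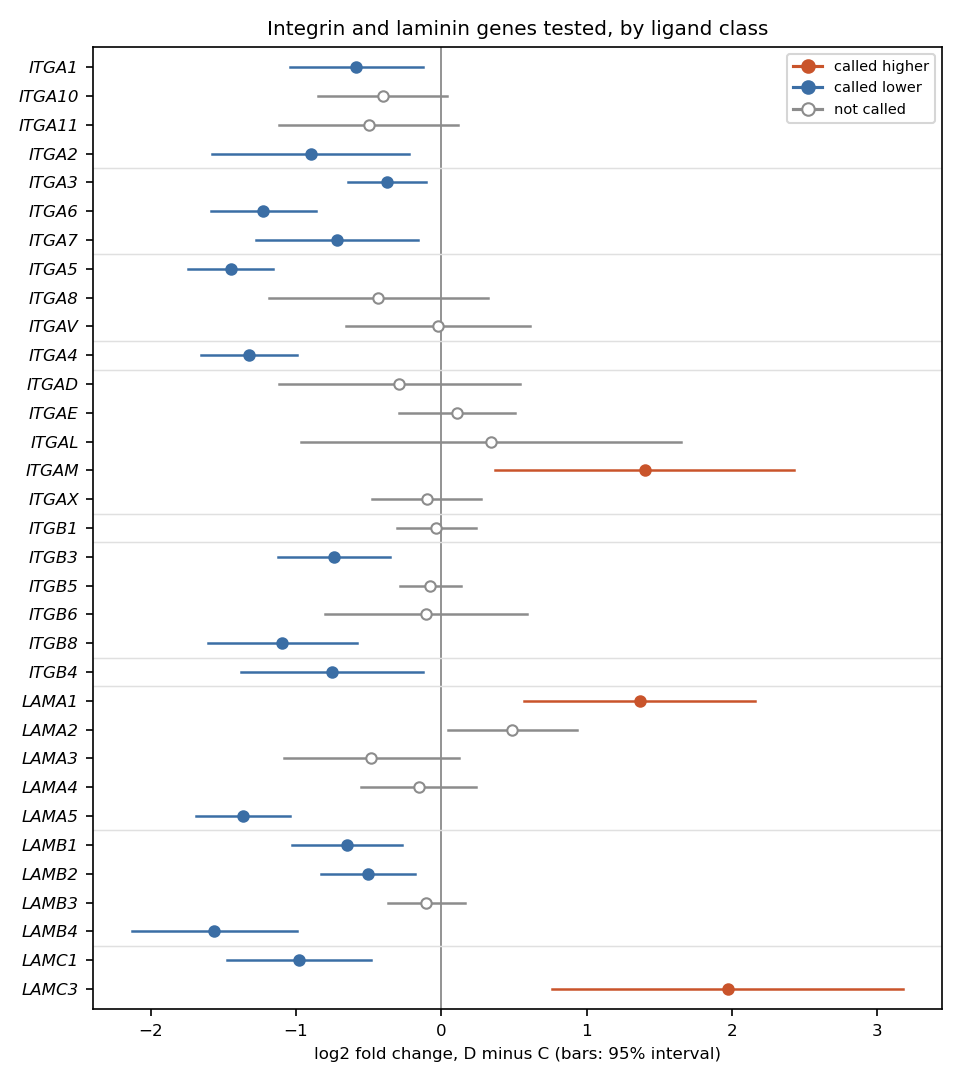
Log2 fold change, D minus C, with 95% intervals for 33 of the 35 tested members, ordered by ligand class from the collagen receptors at the top to the laminin gamma chains at the bottom. Filled points passed an adjusted p of 0.05, and ITGA9 is left out because its mean in C was at most 3 counts.

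The members are long genes, and the D libraries differed along length, so the calls of the members were set beside that trend. Single values with the trend removed are given for some members only. The tested members ranged from 4019 to 15854 bp with a median of 6239 bp, against 4081.5 bp over all tested genes. Over genes longer than 6000 bp, 31.3% were called lower and 17% higher with a median log2 fold change of −0.20, and 20 of the 35 members were of that length, 11 of them called lower. Relative to the C mean, the integrins averaged −0.28 (log2 CPM) in D replicate 1, −0.13 in D replicate 2 and −0.59 in D replicate 3. The laminins averaged −0.13, −0.05 and −0.51 in the same libraries. After the trend with length was taken out of each library, 14 members were called lower and 5 higher (median −0.27), against 30.4% and 32.9% of all genes, and the 14 were all among the 16. Without D replicate 3 the counts were 15 lower and 4 higher with a median of −0.22, against 29.9% and 30.1%.

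**Figure D5:**
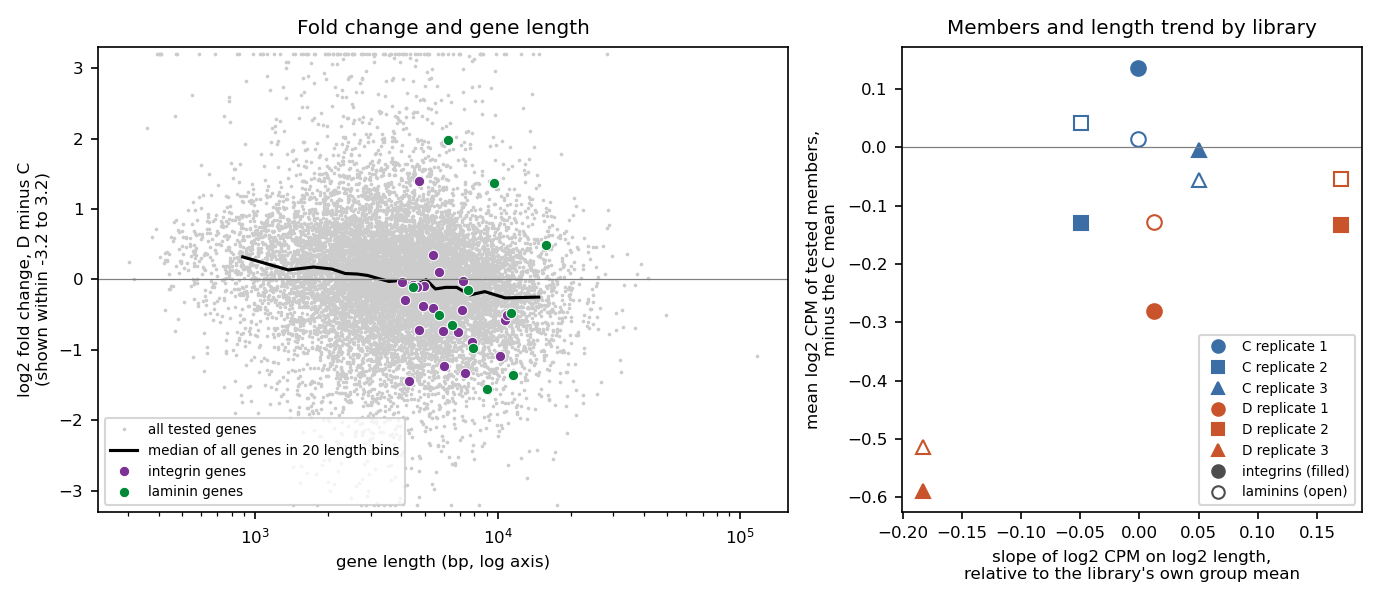
Left, log2 fold change (D minus C) against gene length in bp on a log axis for all tested genes (grey), their median in 20 length bins (line) and 33 of the members (coloured, ITGA9 left out). Right, for each library, the mean log2 CPM of the tested integrins (filled) and laminins (open) relative to C, against the slope of log2 CPM on log2 length; D replicate 3 has the lowest slope and the lowest member means.

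Genes of the machinery that ties integrins to actin were called in both directions. Of 44 tested genes of the adhesion complex list, 12 were called higher and 10 lower, shares of 27.3% and 22.7% that lie near those of all genes, with a median of 0.06. With library size only, where the median of all genes is −0.17 and 20.4% of them were called higher and 35.1% lower, 8 were higher and 14 lower. The talin gene TLN1, whose product activates integrins, was not called, at 572 ± 54.5 CPM in C against 611 ± 171 CPM in D. Among the rises, the LIM-domain adaptor genes LPXN (1.05 ± 0.10), TGFB1I1 (0.81 ± 0.11) and ZYX (0.75 ± 0.11) had the lowest p. ZYX, the zyxin gene, went from 299.8 ± 24.65 to 503 ± 25.5 CPM. Among the falls were CAV1, the caveolin gene (−0.72 ± 0.11), KANK1, a talin-binding adaptor (−1.12 ± 0.19), and PTK2, which encodes focal adhesion kinase and went from 279.5 ± 14.15 to 182 ± 21.2 CPM (−0.62 ± 0.11). All 6 passed an adjusted p of 0.05 in edgeR in every leave-one-out fit and with the length trend removed.

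Matrix ligands and other basement membrane genes were mostly lower where they were called. Of 33 tested genes, 18 fell and 3 rose, 54.5% and 9.09%, against 27.7% and 26.8% of all tested genes, with a median of −0.40. SPARC, a collagen-binding matricellular protein, fell from 1913 ± 162 to 681.5 ± 45.2 CPM (−1.49 ± 0.12), CCN1, an integrin ligand, from 848 ± 56.1 to 342 ± 4.71 CPM (−1.31 ± 0.10), and TGFB1, whose latent form alphaV integrins bind, from 261 ± 6.75 to 137 ± 8.97 CPM (−0.93 ± 0.10). FN1, the fibronectin gene and ligand of ITGA5, was the most abundant gene of the list and did not pass, with 8337 ± 1581 CPM in C and 8267 ± 4309 in D. The rises were in SPP1, the osteopontin gene (0.341 ± 0.219 to 2.38 ± 0.659 CPM), CDH1, the E-cadherin gene and ligand of ITGAE (0.451 ± 0.0763 to 1.65 ± 0.588 CPM), and COL15A1 (0.44 ± 0.15). SPP1 and CDH1 passed the filter on low counts only through D, so their direction is tied to their having been tested. COL15A1 lost its call without C replicate 1 (0.46), C replicate 2 (0.38), C replicate 3 (0.47) or D replicate 2 (0.39), with library size only (0.28), without the filter (0.42) and in each fit of log2 FPKM.

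A further list held laminin receptors other than integrins and surface proteins grouped with them, not all of which are laminin receptors. Of its 12 tested genes, 6 were lower and 3 higher, with a median of −0.32. These shares were 50% and 25%, against 27.7% and 26.8% of all tested genes. SDC1, the syndecan-1 gene, fell from 309 ± 8.66 to 81.7 ± 4.62 CPM (−1.92 ± 0.10), and DAG1, which encodes dystroglycan, the receptor for laminin G domains, from 247 ± 17.5 to 86.6 ± 21.8 CPM (−1.51 ± 0.18). SDC2 fell by 0.67 ± 0.11 on the log2 scale. RPSA, which encodes the ribosomal protein also called the laminin receptor, rose by 0.61 ± 0.17, and BSG (0.45 ± 0.12) and GPC1 (0.46 ± 0.09) rose as well. The RPSA call was lost without C replicate 3 (0.52) and in each fit of log2 FPKM. That of BSG was lost without C replicate 3 (0.41) or D replicate 1 (0.43) and with unfiltered log2(FPKM + 1) (0.29). RPSA has many processed pseudogenes that can share its reads.

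Markers of other cell types were read beside the epithelial and platelet subunits. Of 12 epithelial markers, 8 exceeded 3 counts in each library, and their summed level was 85.8 to 95.4 CPM in C and 127 to 162 in D, while KRT5 stayed at or under 0.148 CPM on average in both groups. Of the 6 tested, 3 rose and 2 fell, 50% and 33.3% against 26.8% and 27.7% of all tested genes. ESRP1 rose by 4.06 ± 0.15, CDH1 by 1.87 ± 0.34 and KRT18 by 0.90 ± 0.14 on the log2 scale, CLDN4 fell by 1.96 ± 0.28 and ESRP2 by 1.42 ± 0.28, and KRT8 did not pass (−0.06 ± 0.13). CDH1 passed the filter on low counts only through D, and neither CLDN4 nor ESRP2 would have passed it on the D libraries alone. The direction of CDH1, CLDN4 and ESRP2 is therefore tied to their having been tested, and the epithelial counts carry that limit. Of the epithelial subunits named above, ITGB4 was just called lower, and ITGB6, LAMA3 and LAMB3 were not called. Over all tested genes, 27.7% were called lower and 26.8% higher. Of the 5 listed platelet markers, 0 exceeded 3 counts in each library. Endothelial markers summed to 27.7 to 33.5 CPM in C and 23.9 to 27.3 in D. Of the 5 tested, 2 were called lower and 0 higher, 40% and 0% against 27.7% and 26.8% of all tested genes. CDH5 fell by 2.93 ± 0.22 and passed the filter on low counts only through C. PECAM1 was just called lower (−0.44 ± 0.16; adjusted p = 0.049, edgeR), a call lost in several leave-one-out fits, and EGFL7 did not pass (0.36 ± 0.15). The bone and line genes COL1A1 (−2.23 ± 0.13), COL1A2 (−1.82 ± 0.13) and RUNX2 (−1.10 ± 0.17) fell. SPP1 of the same list, tested only through D, rose, and ALPL and RB1 did not pass. Whether any of these marker levels bears on the integrin and laminin values was not tested.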

How the data were processed

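RNA-seq libraries were made from total RNA with a SMARTER kit, per the labels' protocols. Deposited for each library by the authors were whole-number counts per gene symbol and FPKM. The deposited FPKM is the count over library total and a fixed gene length, within a relative deviation of 4.26e-07, and these lengths were used. How reads were aligned, counted and treated by strand was not given in the sources used here, so overlapping antisense genes cannot be told apart. The labels name the mouse, and the submitters' processing notes name GRCm38 and mm10, but the symbols follow human naming, so no coordinates or sequences are given.

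The test on counts was that of edgeR 4.0.16 in R 4.3.3 (filterByExpr, TMM, quasi-likelihood F test, 2-sided, group as the only term, Benjamini-Hochberg over 12682 genes, adjusted p under 0.05). The SE is the size of the log2 fold change divided by the square root of F. At these depths 3 counts correspond to 0.146 to 0.163 CPM, and intervals on counts cover counting error only. Replicates differed by more than counting noise (chi-square per degree of freedom 6.21 to 90.49). The edgeR and length scripts were tested on simulated data. Named genes were all members except 1 laminin gene, which is not reported here by name or drawn but stays in the counts, up to 3 called genes per direction from each list, line genes and the leading markers; genes outside this rule (FN1, TLN1, TNC, VCAM1, PTPRC, SPI1, CD14, CLDN4, ESRP2, SP7, BGLAP, IBSP and KRT5) were named after their values were seen. Members and lists were chosen with earlier results of these data known. Alternatives used limma 3.58.1, DESeq2 1.42.0, other scalings and filters, FPKM with a pseudocount of 1 or 0.1, the replicate block, leave-one-out and removal of length trends (lowess, span 0.4).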

Additional observations from a re-analysis of the deposited data

How the results depend on the processing

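Of 20 called members, 7 were tested and called in every alternative at an adjusted p of 0.05. Another 3 (ITGA9, ITGB8 and LAMB4) lost no call where they were tested, but were below the filter of both filtered FPKM settings, and ITGA9 also of the 1 CPM setting. A further 8 lost the call in at least 1 leave-one-out fit. Members called lower numbered 16, against 10 to 17 when a library was left out (10 without C replicate 1 or C replicate 3), and members called higher 4, against 2 to 4 (2 without D replicate 1). At an adjusted p under 0.01, 8 were lower and 1 higher, against 19.5% and 18.9% of all genes. With at least 1 CPM in 3 libraries, or with log2(FPKM + 1) or log2(FPKM + 0.1) above 1 FPKM in 3 libraries, 0 were higher, since the 4 rising genes fall below these filters. The first setting tested 27 members and called 16 lower, against 28.1% of all genes. The others tested 21 members and called 13 lower, against 37% and 36.7%. Of all genes, 2213 and 2209 were higher with those FPKM settings, in place of 3393, and leave-one-out gave 2627 to 3888 higher and 2780 to 3879 lower.

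The labels give replicate numbers without saying whether they pair the samples. Deviations from the group means correlated at 0.008, −0.397 and −0.365 between same-numbered libraries, and C replicate 2 correlated best with D replicate 3 (0.423). Those 2 libraries both had a negative slope on length (−0.05 and −0.18). The correlations mix such trends with any pairing and cannot decide whether the samples were paired. With the number as a replicate block, 13 members were lower and 4 higher, against 23.5% and 21.2% of all genes, with the calls of ITGA3 (adjusted p = 0.096, edgeR), ITGA7 (0.065) and ITGB4 (0.078) lost. There 6 adhesion complex genes were lower in place of 10, and 1 gene of the laminin receptor list was higher in place of 3. At 0.01, 5 adhesion complex and 11 matrix genes were lower and 1 gene of the laminin receptor list was higher. That last count was also 1 with unfiltered log2(FPKM + 1), and 0 matrix genes were higher with either filtered FPKM setting. Leaving out libraries gave 8 to 16 adhesion genes higher and 5 to 13 lower, and 2 to 4 matrix genes higher and 11 to 18 lower. On the laminin receptor list it gave 1 to 4 higher and 5 to 7 lower. The cause of these changes was not tested.

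Signs turned only in genes that were not called. Between leave-one-out fits the log2 fold change ran from −0.0655 to 0.2222 for ITGAE, −0.0703 to 1.1072 for ITGAL, −0.3853 to 0.2465 for ITGAV, −0.2136 to 0.0351 for ITGAX, −0.1033 to 0.0528 for ITGB1, −0.2276 to 0.0944 for ITGB6, −0.3205 to 0.0296 for LAMA4, −0.1564 to 0.0057 for LAMB3, −0.1407 to 0.0592 for KRT8, −0.0461 to 0.0505 for CD68 and −0.021 to 0.1101 for CSF1R. With the length trend removed it was 0.1148 for ITGAV, 0.012 for ITGB1 and 0.0151 for LAMA4. ITGAE was −0.0494 with library size only, −0.0394 with log2(FPKM + 1) with or without a filter and −0.0526 with log2(FPKM + 0.1). CSF1R was −0.0050 with upper quartile factors, −0.1453 with library size only, −0.0049 without a filter, −0.1172 with log2(FPKM + 1) with or without a filter and −0.1429 with log2(FPKM + 0.1). CD68 was 0.0117 with RLE factors and 0.0020 in DESeq2. Genes with 3 to 17 counts per library, such as ITGAL, ITGAD and ITGB6, have wide intervals at this depth.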
